A study of Mus musculus with 24 samples.

Results

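The subject is a stretch of mouse chromosome 6 from 50 to 60 Mb (build mm10) and the genes in it that were expressed in the cortex. Of 185 genes that the count table places in the window, 60 had a count above 10 in at least 6 of the 24 libraries. The ribosomal pseudogene Rps15-ps2 was left out by name, which left 59 members of 43346 genes in all. Of these, 51 were protein coding, 4 antisense, 1 a lincRNA, 2 pseudogenes and 1 of unconfirmed type.

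Cortex RNA was sequenced from 24 mice on a C57BL/6 background, 1 library per mouse. Every mouse carried Cx3cr1CreER on 1 allele, a tamoxifen-dependent Cre under a promoter that is active in microglia, together with a TREM2 construct labelled +/+, either TREM2-WT or TREM2-R47H. Induced mice received tamoxifen and control mice corn oil, with 6 mice, 3 of each sex per the series text, in each of WT_control, R47H_control, WT_induced and R47H_induced. The labels used here state no ages, no origin of the constructs and no breeding scheme, so genotype and line cannot be told apart, and because every mouse carried the Cre, tamoxifen and induction cannot be told apart either.

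TREM2 is a surface receptor through which microglia sense lipids, and its R47H variant raises the risk of Alzheimer's disease. The mouse Trem2 gene lies on chromosome 17 and the window on chromosome 6. The labels used here do not state where the TREM2 constructs lie. The window holds the Hoxa cluster of body-axis transcription factors and a cluster of Vmn1r pheromone receptors, neither of which is a gene set of the adult cortex. Around them lie genes of many kinds that share a neighbourhood and no common pathway, among them Gars (glycyl-tRNA synthetase), Adcyap1r1 (the receptor of the peptide PACAP), Hnrnpa2b1 (an RNA-binding protein), Osbpl3 (an oxysterol-binding protein relative) and Herc6 (a ubiquitin ligase that interferon turns on in mice).

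The window was chosen because genes in it differed between the genotypes, and the count rule used the same libraries. Genotype differences below are therefore a description, and no test of them is read as support. "Called" means an adjusted p below 0.05 in edgeR over all 19678 tested genes. The comparisons of induced with control mice within a genotype were not used in the choice and were tested. The difference of the genotype differences between treatments is built from values the choice used. Its result is therefore a description as well.

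Promoters of 3 members are shown, those of Osbpl3, the most clearly lower gene in R47H mice among the well-expressed members, of Herc6, the higher member from the interferon response, and of Gars, the lower member that belongs to a known stress-responsive enzyme family. Each is the 250 bases before the annotated start on the gene's own strand, from RefSeq (GRCm38.p6). They are Osbpl3 at chr6:50456171-50456420 (minus strand), Herc6 at chr6:57580742-57580991 (plus strand) and Gars at chr6:55037751-55038000 (plus strand). Capitals mark a match to TGATGNAA, the core of the element bound by ATF4, a factor of the amino-acid stress response, on either strand.
Osbpl3: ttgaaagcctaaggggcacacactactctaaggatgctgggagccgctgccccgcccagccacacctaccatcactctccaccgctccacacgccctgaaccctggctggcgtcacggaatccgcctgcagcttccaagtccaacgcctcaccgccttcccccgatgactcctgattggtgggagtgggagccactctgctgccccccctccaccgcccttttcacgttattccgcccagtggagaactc
Herc6: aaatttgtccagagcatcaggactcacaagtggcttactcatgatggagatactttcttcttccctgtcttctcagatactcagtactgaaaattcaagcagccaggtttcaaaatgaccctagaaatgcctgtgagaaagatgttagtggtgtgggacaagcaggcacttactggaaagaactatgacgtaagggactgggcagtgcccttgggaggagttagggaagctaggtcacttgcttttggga
Gars: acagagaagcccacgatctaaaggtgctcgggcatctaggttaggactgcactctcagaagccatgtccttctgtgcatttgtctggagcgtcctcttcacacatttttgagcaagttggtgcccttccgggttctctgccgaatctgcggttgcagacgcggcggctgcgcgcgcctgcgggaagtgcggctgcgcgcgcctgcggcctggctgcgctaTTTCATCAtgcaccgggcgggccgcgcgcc
The Gars match, read on the reverse strand, covers bases -30 to -23 before the start. TGATGNAA on either strand occurs in 3.45% of the 32851 promoters of this length, and in those of Creb5 and Hnrnpa2b1 among the members. The windows of Osbpl3 and Herc6 hold no match, which says only that these letters are not in them. A match is a description of letters and not a measured site.

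Libraries held 27933505 to 56082520 counts, and the members took 0.265% to 0.294% of them. Levels are in CPM, counts scaled to the TMM-adjusted library total. The cortical markers were present in every group (Slc17a7 at 922 to 958 CPM on average). Of 5 striatal markers, Drd2, Penk and Rgs9 were lower in R47H control mice and Drd2 and Penk in R47H induced mice. Their summed level ran from 604 to 729 CPM in WT_control, 542 to 633 in R47H_control, 652 to 730 in WT_induced and 542 to 660 in R47H_induced. Reads of 3 rRNA-like genes made up on average 15.9% ± 3.18 in WT_control, 20.3% ± 2.73 in R47H_control, 18.3% ± 3.21 in WT_induced and 17.04% ± 1.69 in R47H_induced (SD, n = 6). The part of the striatal markers in the results below was not tested, and control values adjusted for the rRNA-like fraction are given for the called members. In bulk tissue, fewer cells of a type and less RNA per cell cannot be told apart. Each library is a separate mouse.

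A pair of libraries stand apart. WT_induced replicate 6 had the highest level of its group in all 7 interferon genes given beside Herc6, and R47H_control replicate 3 is described below. Results with and without the library in question are given for Herc6, Fkbp9, Lancl2, Neurod6, the interferon genes and the number of control calls. Other members are given with all libraries.

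Of the 59 members, 18 were called in at least 1 treatment, of which 15 were higher and 3 lower in R47H mice. The share of all genes called in at least 1 treatment was not computed. In control mice 13 were called, 10 higher and 3 lower, where 5.74% of all tested genes were called (2.69% higher, 3.04% lower). In induced mice 15 were called, 12 higher and 3 lower, where 5.80% of all tested genes were called (2.59% higher, 3.22% lower). The member shares were 22.03% and 25.4%, and nothing is read from them because the window was picked on these differences. No library is shared between the comparisons. Called in both treatments, always with the same sign, were 10 members, where 2.46% of all genes were. These were Osbpl3, Wipf3 and Gars, which were lower, and Chn2, Mturn, Fkbp9, Ppm1k, Herc6, Pyurf and Lancl2, which were higher. Hibadh, Znrf2 and Nap1l5 were called in control mice only, and 5430402O13Rik, Inmt, Nt5c3, Fam13a and Tigd2 in induced mice only. For none of these 8 did the genotype difference itself differ between the treatments (lowest edgeR adjusted p = 0.639, for Nt5c3).

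The split into higher and lower depends on the scaling. With library totals in place of TMM, 4 members were higher and 6 lower in control mice (6.77% of all genes called), and 12 higher and 1 lower in induced mice (4.04% of all genes called). That scaling moved the median of all genes by less than 0.1, to -0.06 in control and 0.03 in induced mice. With that rRNA-like fraction as a model term, 0 members were called higher and 3 lower in control mice (2.29% of all genes called), while 12 higher and 4 lower were called in induced mice (5.25% of all genes called). The adjusted control differences were 0.10 in Hibadh, 0.15 in Chn2, 0.13 in Mturn, 0.12 in Znrf2, 0.18 in Fkbp9, 0.14 in Pyurf, 0.10 in Lancl2 and 0.11 in Nap1l5, none of them called. Those of Osbpl3, Wipf3 and Gars were -0.30, -0.19 and -0.16. Without WT_control replicate 6 the control calls were 4 higher and 5 lower (4.19% of all genes called), with Hibadh, Znrf2, Herc6, Pyurf, Lancl2 and Nap1l5 lost and Cycs and Herc3 gained.

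**Figure D1:**
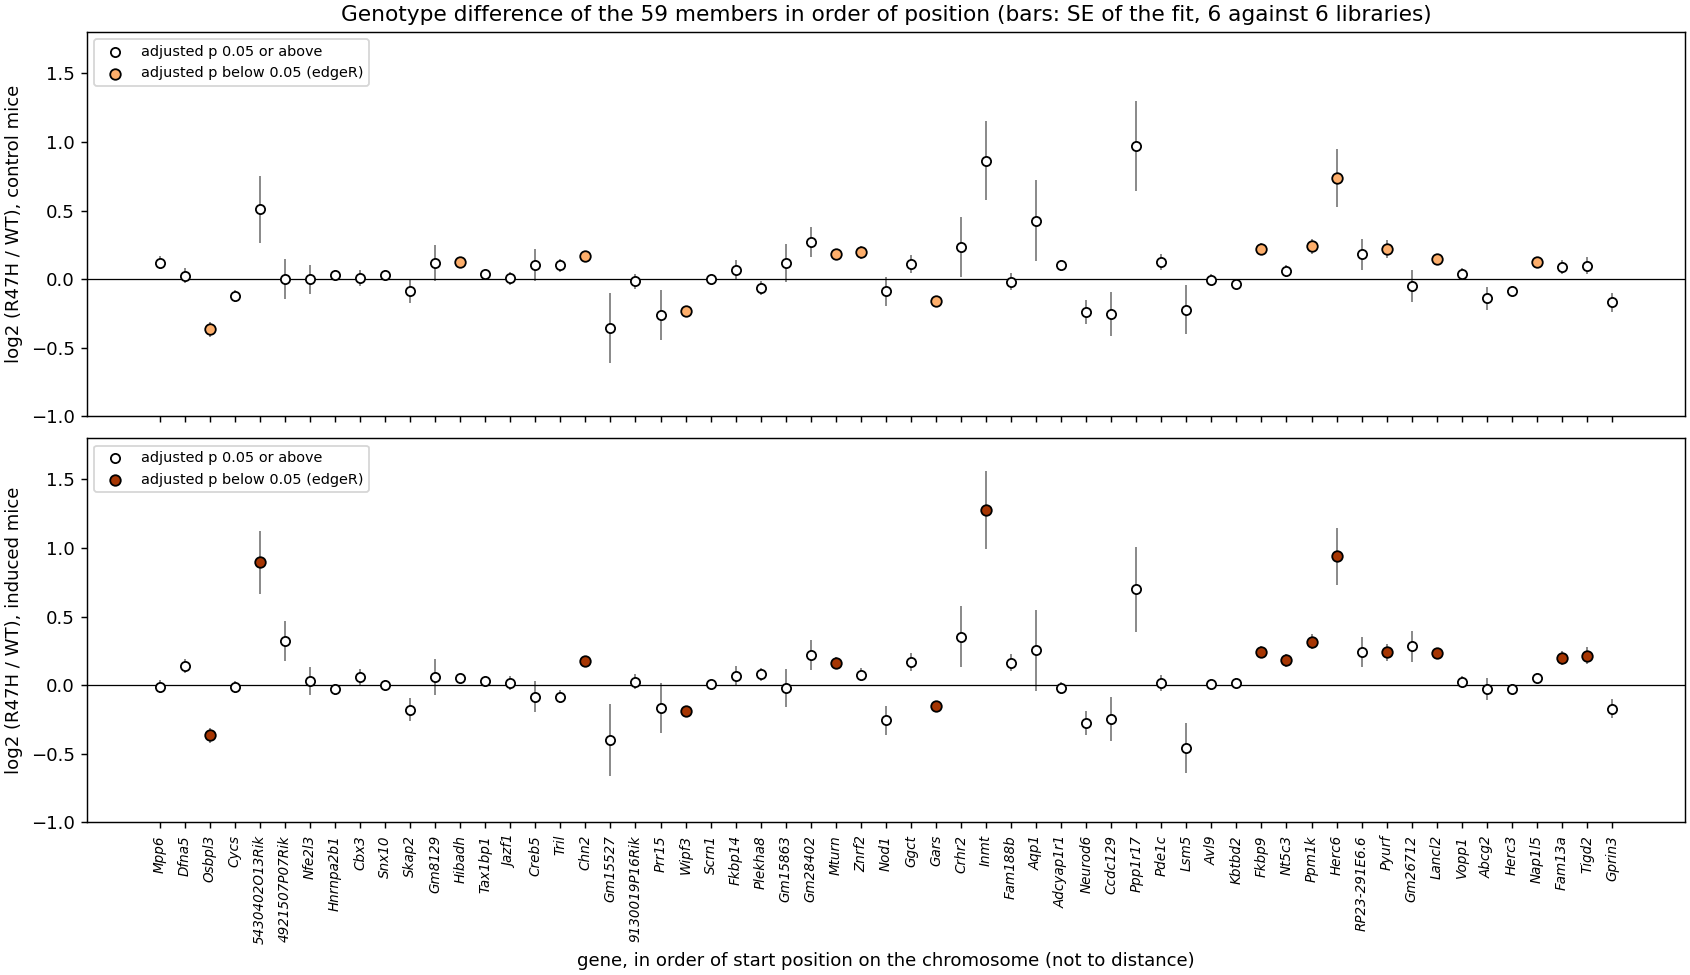
Log2 difference of R47H from WT for each of the 59 members in control (top) and induced mice (bottom), with genes in order of position on the x axis and bars for the SE. Filled points are the 13 and 15 called members. Osbpl3, Wipf3 and Gars lie below 0 in both panels, and the filled points above 0 are densest towards the right, from Fkbp9 to Lancl2.

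Osbpl3 (chr6:50293330-50456201), whose protein moves and senses lipids at contacts between the endoplasmic reticulum and the plasma membrane, differed most clearly of the lower genes. In control mice its lowest, median and highest libraries were at 41.7, 47.7 and 49.7 CPM in WT and 32.2, 35.9 and 41.1 CPM in R47H. In induced mice they were at 39.4, 43.1 and 46.3 CPM in WT and 30.4, 33.2 and 36.1 CPM in R47H. Every R47H library lay below every WT library of its treatment. The log2 difference was -0.37 (SE 0.06) in control and -0.36 (SE 0.06) in induced mice, and it was called under all 34 alternatives in each. Of 12 tested genes of the oxysterol-binding protein family, Osbpl3 was the only one called lower in either treatment, and Osbpl5, on another chromosome, was called higher in induced mice (0.18, SE 0.04). The family was looked up after the values of Osbpl3 were known.

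Wipf3 (chr6:54429603-54503768) encodes a partner of WASP proteins, which drive actin assembly. Its libraries ran from 124 to 137 CPM (median 133) in WT_control and from 107 to 120 CPM (median 112) in R47H_control. They ran from 125 to 140 CPM (median 131) in WT_induced and from 109 to 123 CPM (median 116) in R47H_induced. The groups did not overlap in either treatment. The log2 difference was -0.23 (SE 0.04) in control and -0.19 (SE 0.04) in induced mice. With library totals as the scaling Wipf3 was no longer called in induced mice.

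Gars (chr6:55038001-55079504) charges glycine onto its tRNA, and cells raise it with other synthetases when amino acids run short. Its libraries ran from 98.4 to 109 CPM (median 107) in WT_control and from 91.8 to 97.0 CPM (median 94.2) in R47H_control. They ran from 102 to 111 CPM (median 107) in WT_induced and from 91.1 to 98.5 CPM (median 96.0) in R47H_induced. As with Wipf3, no R47H library reached the WT range of its treatment. The log2 difference was -0.16 (SE 0.03) in control and -0.15 (SE 0.03) in induced mice, the latter not called with library totals as the scaling.

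Other synthetase genes, which lie on other chromosomes or outside the window, are set beside Gars for comparison. Of 20 tested genes for cytosolic aminoacyl-tRNA synthetases, Gars included, 16 had negative differences in each treatment. In control mice 6 were called lower, Gars among them, and Hars was called higher, where 3.04% and 2.69% of all genes were. In induced mice 4 were called lower, Gars among them, where 3.22% of all genes were. Cars, for cysteine, was at -0.30 (SE 0.05) in control and -0.19 (SE 0.05) in induced mice, and Yars, for tyrosine, at -0.19 (SE 0.04) and -0.15 (SE 0.04). The family was chosen after the value of Gars was known, and whether Gars goes with its neighbours or its enzyme family was not tested.

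Herc6 (chr6:57580992-57665136), a ligase that attaches ubiquitin-like proteins and belongs to the interferon response in mice, showed one of the widest differences. Its lowest, median and highest libraries were at 4.76, 5.69 and 6.83 CPM in WT_control and 6.17, 10.3 and 11.1 CPM in R47H_control. They were at 4.74, 5.42 and 11.5 CPM in WT_induced and 9.07, 11.2 and 17.5 CPM in R47H_induced. The overlap in each treatment came from 1 library. R47H_control replicate 3, at 6.17 CPM, lay within the WT range, and WT_induced replicate 6, at 11.5 CPM, lay within the R47H range.

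The log2 difference of Herc6 was 0.74 (SE 0.21) in control and 0.94 (SE 0.21) in induced mice. Without R47H_control replicate 3 it was 0.84 (SE 0.21) in control mice, and without WT_induced replicate 6 it was 1.21 (SE 0.16) in induced mice. The control call is fragile: it was lost under 12 of 34 alternatives, and after adjustment for the rRNA-like fraction the difference was 0.41 (SE 0.22). Among fits without 1 control library, the call stayed only when WT_control replicate 5 or R47H_control replicate 3 was left out. Of its exon bases, 13.7% are overlapped by another annotated gene.

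The genotype difference of Herc6 had the opposite sign to those of other genes that interferon turns on. Of 7 such genes chosen after the value of Herc6 was known (Irf7, Ifit1, Ifit3, Usp18, Oasl2, Isg15 and Rsad2), 6 were called lower in R47H induced mice, where 3.22% of all genes were. In control mice 0 were called, and all 7 had negative differences in both treatments. Much of the size came with WT_induced replicate 6, without which 4 were called lower in induced mice. Irf7, a master regulator of that response, was at 12.4 CPM in that library and at 3.43 CPM in the next highest of its group. Its difference in induced mice was -2.03 (SE 0.50) with that library and -1.14 (SE 0.32) without it. Within the induced groups Herc6 was highest in the same libraries as most of these genes. WT_induced replicate 6 was highest for Herc6 and all 7. R47H_induced replicate 1 was highest for Herc6 (17.5 CPM), Irf7, Ifit1, Ifit3, Usp18, Oasl2 and Isg15, but not for Rsad2. In the control groups only Rsad2, in WT mice, shared its highest library with Herc6. In the HERC family, Herc3, which lies further along the window, was at -0.08 (SE 0.03) and -0.02 (SE 0.03) in control and induced mice and not called. Outside the window, Herc1 was called lower in control mice (-0.12, SE 0.03) and Herc2 in induced mice (-0.11, SE 0.03).

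Of 7 members for innate immunity and interferon, Herc6 was the only one called in each treatment, where 5.74% and 5.80% of all genes were. Nod1, a sensor of bacterial peptidoglycan, was at -0.09 (SE 0.11) in control and -0.26 (SE 0.10) in induced mice. Tril, a partner of Toll-like receptors, was at 0.10 (SE 0.05) and -0.08 (SE 0.05). Skap2, an adaptor of myeloid cells, was at -0.09 (SE 0.08) and -0.18 (SE 0.08), and Dfna5, gasdermin E, at 0.03 (SE 0.05) and 0.14 (SE 0.05). Tax1bp1, an autophagy receptor, was at 0.04 and 0.03 (SE 0.03 in each).

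Of 7 members for mitochondria and metabolism, 3 were called higher in control mice, where 2.69% of all genes were, and 4 in induced mice, where 2.59% were. None was called lower. Ppm1k (chr6:57506502-57535426) encodes the phosphatase that activates the enzyme complex for branched-chain keto acids. Its libraries ran from 68.5 to 82.7 CPM (median 76.2) in WT_control, 80.2 to 100 CPM (median 90.1) in R47H_control, 70.1 to 84.5 CPM (median 74.2) in WT_induced and 87.5 to 106 CPM (median 90.7) in R47H_induced. The ranges met in control mice only. The log2 difference was 0.24 (SE 0.06) in control and 0.32 (SE 0.06) in induced mice, and after adjustment for the rRNA-like fraction it was 0.13 (SE 0.05) and not called in control mice and 0.35 (SE 0.04) in induced mice.

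Hibadh, a dehydrogenase of valine breakdown in mitochondria, was at 35.1 ± 1.70 CPM in WT_control and 38.4 ± 0.814 in R47H_control (SD, n = 6), with a log2 difference of 0.13 (SE 0.03). In induced mice its levels were 37.5 ± 1.17 and 38.9 ± 0.497 CPM (0.05, SE 0.03). Pyurf, a small mitochondrial protein, was at 0.22 (SE 0.06) in control and 0.24 (SE 0.06) in induced mice. Its control difference was 0.14 (SE 0.07) and not called after adjustment for the rRNA-like fraction, and the control call was lost under 9 of 34 alternatives. Of its exon bases, 34.2% are overlapped by another annotated gene. Nt5c3, a nucleotidase for pyrimidines, was at 0.06 (SE 0.04) in control and 0.18 (SE 0.04) in induced mice.

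Inmt, a methyltransferase for indoleamines, was a low gene with a large ratio. Its level was 0.465 ± 0.112 CPM in WT_control, 0.848 ± 0.229 in R47H_control, 0.434 ± 0.230 in WT_induced and 1.07 ± 0.466 in R47H_induced (SD, n = 6). The libraries overlapped in both treatments, and the log2 difference was 0.86 (SE 0.29) in control and 1.28 (SE 0.28) in induced mice, where it was called. Cycs (cytochrome c) and Ggct (a glutathione-cycle enzyme) were not called.

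Of the 12 members for membrane transport, lipids and signalling, 2 were called higher and 2 lower in control mice, and 3 higher and 2 lower in induced mice, where 5.74% and 5.80% of all genes were called. Chn2, beta-chimaerin, which switches off the small GTPase Rac, was at 38.5 ± 1.56 CPM in WT_control and 43.3 ± 1.90 in R47H_control, and at 39.0 ± 2.11 and 44.0 ± 1.62 CPM in the induced groups (SD, n = 6). Its log2 difference was 0.17 (SE 0.04) and 0.18 (SE 0.04). Mturn, maturin, a gene of neural differentiation, was at 118 ± 6.01 and 134 ± 6.81 CPM in control and 122 ± 6.06 and 137 ± 4.61 CPM in induced mice, with log2 differences of 0.19 (SE 0.04) and 0.17 (SE 0.04). For both, the genotype ranges met in control mice and were apart in induced mice.

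Fam13a was at 16.5 ± 0.477 CPM in WT_induced and 19.0 ± 0.672 in R47H_induced (SD, n = 6), with ranges that did not meet (log2 0.20, SE 0.05) and was at 0.09 (SE 0.05) in control mice. Snx10 (endosome sorting), Pde1c (a cyclic nucleotide phosphodiesterase), Abcg2 (an efflux transporter of brain vessels), Avl9, Plekha8, Gprin3 and Aqp1 were not called. Aqp1, a water channel of the choroid plexus, averaged 3.38 CPM in WT_control, 4.55 in R47H_control, 3.28 in WT_induced and 3.91 in R47H_induced. Its difference was 0.43 (SE 0.30) in control and 0.25 (SE 0.30) in induced mice, and the summed level of 5 choroid plexus markers ran from 17.1 to 620 CPM. The part of choroid plexus tissue in Aqp1 was not tested.

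Of 7 members listed for protein folding and turnover, 3 were called higher in control and 2 in induced mice, where 2.69% and 2.59% of all genes were, and none lower. The list also takes in Nap1l5, Tigd2 and Scrn1, which belong to that class loosely if at all. Nap1l5 is 1 of the control calls and Tigd2 is 1 of the induced calls. Fkbp9 (chr6:56832059-56879358), a proline isomerase of the endoplasmic reticulum, ran from 25.4 to 27.0 CPM (median 26.1) in WT_control and from 26.7 to 33.9 CPM (median 30.5) in R47H_control. It ran from 25.8 to 29.0 CPM (median 27.1) in WT_induced and from 29.9 to 34.4 CPM (median 31.9) in R47H_induced. The single R47H library inside the WT range was R47H_control replicate 3. The log2 difference was 0.22 (SE 0.05) in control mice, 0.26 (SE 0.04) there without that library, and 0.24 (SE 0.04) in induced mice. Its relative Fkbp14 was at 0.07 in both treatments and not called.

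Znrf2, a ubiquitin ligase, ran from 18.9 to 22.4 CPM (median 20.3) in WT_control and from 22.8 to 24.1 CPM in R47H_control, with ranges that did not meet (log2 0.20, SE 0.05). After adjustment for the rRNA-like fraction it was 0.12 (SE 0.05) and not called, and in induced mice the difference was 0.08 (SE 0.05). Nap1l5, an imprinted gene inside an intron of Herc3, was at 0.12 (SE 0.04) in control and 0.05 (SE 0.04) in induced mice, and its call was lost under 20 of 34 alternatives. Tigd2 was at 0.10 (SE 0.06) and 0.22 (SE 0.06), with the induced call lost under 11 of 34. Scrn1 and Kbtbd2 had differences of at most 0.03 in size on the log2 scale.

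Lancl2 (chr6:57702601-57739438), a LanC-like protein, was not in a role group. Its libraries ran from 61.9 to 68.1 CPM (median 65.0) in WT_control and from 64.8 to 75.5 CPM (median 73.2) in R47H_control. They ran from 61.7 to 67.7 CPM (median 64.6) in WT_induced and from 71.2 to 83.3 CPM (median 74.7) in R47H_induced, above every WT_induced library. The only R47H_control library within the WT range was again replicate 3. The log2 difference was 0.14 (SE 0.04) in control mice, 0.17 (SE 0.04) there without replicate 3, and 0.24 (SE 0.04) in induced mice.

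**Figure D2:**
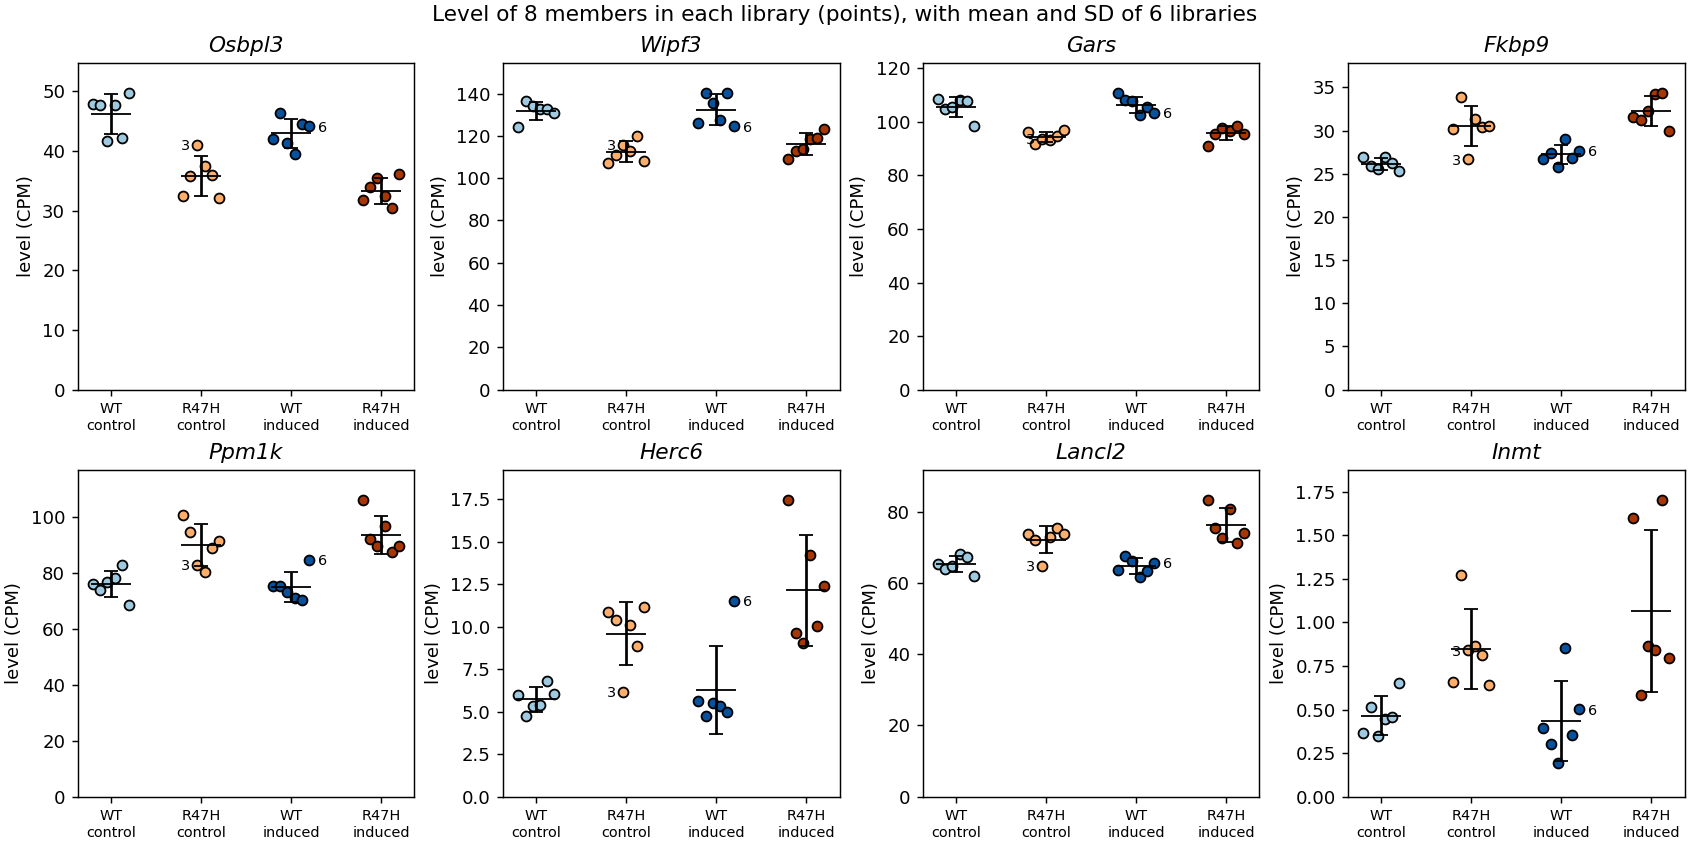
Level in CPM of 8 members in each of the 24 libraries, by group, with the mean and SD of 6 libraries, on axes that start at 0. R47H_control replicate 3 and WT_induced replicate 6 carry their numbers. Osbpl3, Wipf3 and Gars separate by genotype in both treatments. In Herc6, Fkbp9 and Lancl2 replicate 3 of R47H_control lies at the WT level.

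Of 9 members for transcription and RNA, Gars was the only one called in each treatment, where 5.74% and 5.80% of all genes were. The largest uncalled differences of the window were those of Ppp1r17, a phosphatase inhibitor below 1 CPM, at 0.97 (SE 0.33) in control and 0.70 (SE 0.31) in induced mice. Lsm5, an RNA-binding protein of the Lsm ring, was at -0.22 (SE 0.18) and -0.46 (SE 0.18). Hnrnpa2b1, the highest member on average at 344 CPM, was at 0.03 in control and -0.03 in induced mice (SE 0.04 in each), and Cbx3, a heterochromatin protein, at 0.01 and 0.06 (SE 0.06 in each). Neurod6, a factor of excitatory cortical neurons, was at 48.8 ± 5.08 CPM in WT_control and 41.4 ± 6.95 in R47H_control, and at 47.1 ± 3.44 and 39.0 ± 2.94 in the induced groups (SD, n = 6). Its differences of -0.24 (SE 0.09) and -0.27 (SE 0.09) were not called. Without R47H_control replicate 3, its highest R47H library at 54.2 CPM, it was called in both treatments. In induced mice it was also called with DESeq2, with limma-voom and with the rRNA-like fraction as a model term, among other alternatives. Of the other excitatory neuron markers, Cux2 was called lower in control mice (-0.18) and Neurod2 higher in induced mice (0.24).

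Peptide receptors were not called. Adcyap1r1, the PACAP receptor and an abundant gene here, was at 197 ± 11.4 and 211 ± 8.51 CPM in control and at 206 ± 12.3 and 203 ± 8.81 CPM in induced mice (WT and R47H, SD, n = 6). Crhr2, a receptor of the corticotropin-releasing factor family, was near 1 CPM in every group, with differences of 0.24 (SE 0.22) and 0.35 (SE 0.22). Non-coding members were low. The antisense gene 5430402O13Rik ran from 0.182 to 0.342 CPM in WT_induced and from 0.463 to 0.605 CPM in R47H_induced (log2 0.89, SE 0.23), and was at 0.51 (SE 0.24) in control mice, where the ranges met.

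Counted by ranges, in control mice 4 members had R47H libraries all above (1) or all below (3) the WT libraries, where 3.18% of all genes did (1.66% above, 1.52% below). In induced mice 11 did, 8 above and 3 below, where 3.25% of all genes did (1.46% above, 1.79% below). The difference had the same sign in both treatments for 45 of 59 members (76.3%), and for 64.3% of all tested genes. That share was 74.6% from 40 to 50 Mb and 61.1% from 60 to 70 Mb on chromosome 6. For the genes around Trem2 on chromosome 17 it was 81.1%. The median difference of the members was 0.04 in control and 0.03 in induced mice. Their median absolute difference was 0.12 and 0.16, against 0.08 and 0.08 over all genes.

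Called genes were counted by stretch along the window, and differences between stretches were not tested. Between 50 and 54 Mb 3 of 17 members were called in either treatment, and between 54 and 57 Mb 8 of 29. Between 57 and 58 Mb it was 4 of 7, and between 58 and 60 Mb 3 of 6. Of all genes, 5.74% were called in control and 5.80% in induced mice. The share called in either was not computed and is larger than both, so these shares are not like for like with the counts by stretch. From 57 to 58 Mb each treatment had 4 of 7. From 58 to 59 Mb each had 1 of 4, and from 59 to 60 Mb control mice had 0 of 2 and induced mice 1 of 2. From 51 to 52 Mb, the stretch of Nfe2l3, Hnrnpa2b1, Cbx3, Snx10 and Skap2, 0 of 5 members were called. In places uncalled genes lay beside called ones: Scrn1 follows Wipf3 with a difference of 0.00 in control and 0.01 in induced mice, and Vopp1 follows Lancl2 with 0.04 and 0.03. Elsewhere genes called in either treatment were neighbours, as with Fkbp9, Nt5c3, Ppm1k and Herc6, and with Nap1l5, Fam13a and Tigd2. Of these, Nt5c3, Fam13a and Tigd2 were called in induced mice only and Nap1l5 in control mice only. The 3 lower genes, Osbpl3, Wipf3 and Gars, lay among higher ones in the left part of the window. Under the reported settings every called member after Gars, from Inmt to Tigd2, was higher. Other settings called lower members there. DESeq2 added Herc3 in control and Neurod6 in induced mice, and library-total scaling added Herc3 and Gprin3 in control mice.

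At the ends, Mpp6 is the first member (start 50110241) and Gprin3 the last (start 59352461), and neither was called. Just before the window, Npy (start 49822710), the neuropeptide Y gene, was at -0.19 (SE 0.06) in control and -0.28 (SE 0.06) in induced mice. Npy was called lower in induced mice and not called in control mice, so the calls did not stop at this edge. By the count rule, Gm15527 was just inside with 7 libraries above the limit and BB365896 just outside with 4. The 15 rows of the Hoxa cluster and the 42 Vmn1r rows had no member, and no library had more than 6 counts in any of them.

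Genes of the neighbouring windows, picked by the same rule, gave fewer calls. From 40 to 50 Mb 1 of 63 was called in control and 3 in induced mice, and from 60 to 70 Mb 0 and 1 of 18. On the rest of chromosome 6 the share was 2.93% in control and 4.85% in induced mice. The genes around Trem2 on chromosome 17 (40 to 50 Mb) had 22 and 24 of 106 called, 20.8% and 22.6%. Differences between these windows were not tested.

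R47H_control replicate 3 did not follow its group for some members of this window. For the 15 members called in induced mice, each control library was placed nearer to the mean of WT_induced or of R47H_induced on the log2 scale (CPM plus 0.1). Of the other 5 R47H_control libraries, 9 to 14 members were on the R47H side, and in replicate 3 there were 4. The WT_control libraries had 0 to 2. The 4 members on the R47H side in replicate 3 all lay between 54 and 57 Mb, where 7 were placed. It had 0 of 2 before 54 Mb and 0 of 6 after 57 Mb. The other 5 R47H_control libraries had 1 or 2 of 2 before 54 Mb and 5 to 7 of 7 between 54 and 57 Mb. After 57 Mb they had 2 to 6 of 6, with replicate 4 the lowest of them. Hibadh, which lies before 54 Mb, was called in control mice only and was not placed. Replicate 3 had it at 39.7 CPM, above the other R47H_control libraries (37.2 to 38.6) and the WT_control libraries (32.4 to 37.7). Osbpl3, 1 of the 2 placed before 54 Mb, was at 41.1 CPM in replicate 3, below the WT_control range of 41.7 to 49.7. These stretches hold few genes, and a change along the window in 1 library was not tested.

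Elsewhere in the genome the same library did follow its label. Of 24 genes around Trem2 called in induced mice, 23 were on the R47H side in replicate 3, and 14 to 23 in the other R47H_control libraries. Over 1127 called genes outside the window the share was 78.1% in replicate 3 and 66.6% to 80.9% in the other 5. Read the other way, the 13 members called in control mice had 11 to 13 on the R47H side in R47H_induced libraries and 0 to 5 in WT_induced libraries. Of these 13, 10 were also called in induced mice. The window was chosen on both treatments, so the side on which a group falls is a description in either reading and no test. Of all 18 called members, replicate 3 lay within the WT_control range in 10, and nearer to WT than any other R47H_control library in 9. Left out, the control calls were 14 in place of 13, with Neurod6 added and none lost.

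**Figure D3:**
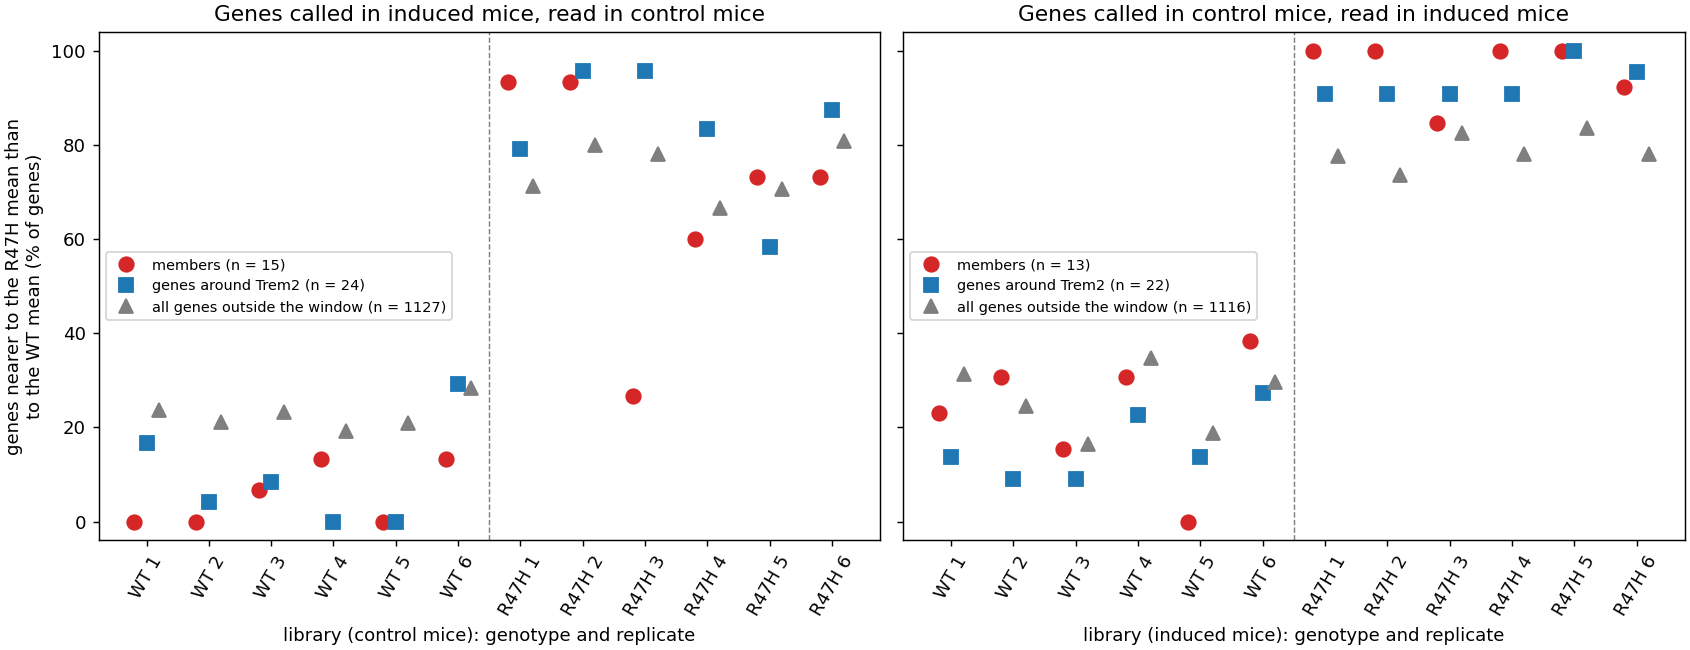
Share of called genes that lie nearer to the R47H than to the WT mean in each library, for genes called in induced mice and read in control mice (left) and the reverse (right). Circles are the members, squares the genes around Trem2 and triangles all genes outside the window. R47H replicate 3 on the left has 26.7% of the members but 95.8% of the genes around Trem2 on the R47H side.

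Tamoxifen moved no member past the threshold. In WT mice 0 of 59 members were called in edgeR, where 0% of all genes were, and 3 had an unadjusted p below 0.05 (5.08%, against 7.85% of all genes). In R47H mice 0 were called, where 0% of all genes were, and 5 had an unadjusted p below 0.05 (8.47%, against 5.11%). DESeq2 and limma-voom called 0 members as well, with 2 and 3 at an unadjusted p below 0.05 in WT mice and 5 and 6 in R47H mice. The median log2 change of the members was 0.01 in WT and 0.02 in R47H mice, against 0.00 and 0.00 over all genes. The control and induced groups of both genotypes also enter the genotype comparisons.

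In WT mice the lowest p belonged to Hibadh, at 0.10 (SE 0.03, edgeR adjusted p = 0.492), followed by Fam188b at -0.14 (SE 0.06), Znrf2 at 0.10 (SE 0.05), Mpp6 at 0.10 (SE 0.05) and Osbpl3 at -0.10 (SE 0.06). In R47H mice it belonged to Tigd2, at 0.19 (SE 0.06, edgeR adjusted p = 0.945), followed by Plekha8 at 0.13 (SE 0.05), Tril at -0.11 (SE 0.05), Nt5c3 at 0.10 (SE 0.04) and Cycs at 0.10 (SE 0.04). No member's induced and control libraries were fully apart in either genotype. Herc6 was at 0.14 (SE 0.21) in WT and 0.34 (SE 0.20) in R47H mice.

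The genotype difference was compared between treatments to ask whether tamoxifen changed it. The window was chosen on these same genotype differences, so the values are a description. In edgeR 0 of 59 members were called, where 0% of all genes were, and 4 had an unadjusted p below 0.05 (6.78%, against 7.94%). DESeq2 and limma-voom called 0, with 2 at an unadjusted p below 0.05 in each. Tril had the lowest p, at -0.18 (SE 0.06, edgeR adjusted p = 0.560), followed by Adcyap1r1 at -0.12 (SE 0.06), Gm26712 at 0.33 (SE 0.16), Fam188b at 0.18 (SE 0.09) and Plekha8 at 0.14 (SE 0.07). For the lower genes the change between treatments was 0.00 (SE 0.08) in Osbpl3, 0.04 (SE 0.05) in Wipf3 and 0.01 (SE 0.04) in Gars. For Herc6 it was 0.20 (SE 0.29), the widest error of these 4 genes.

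**Figure D4:**
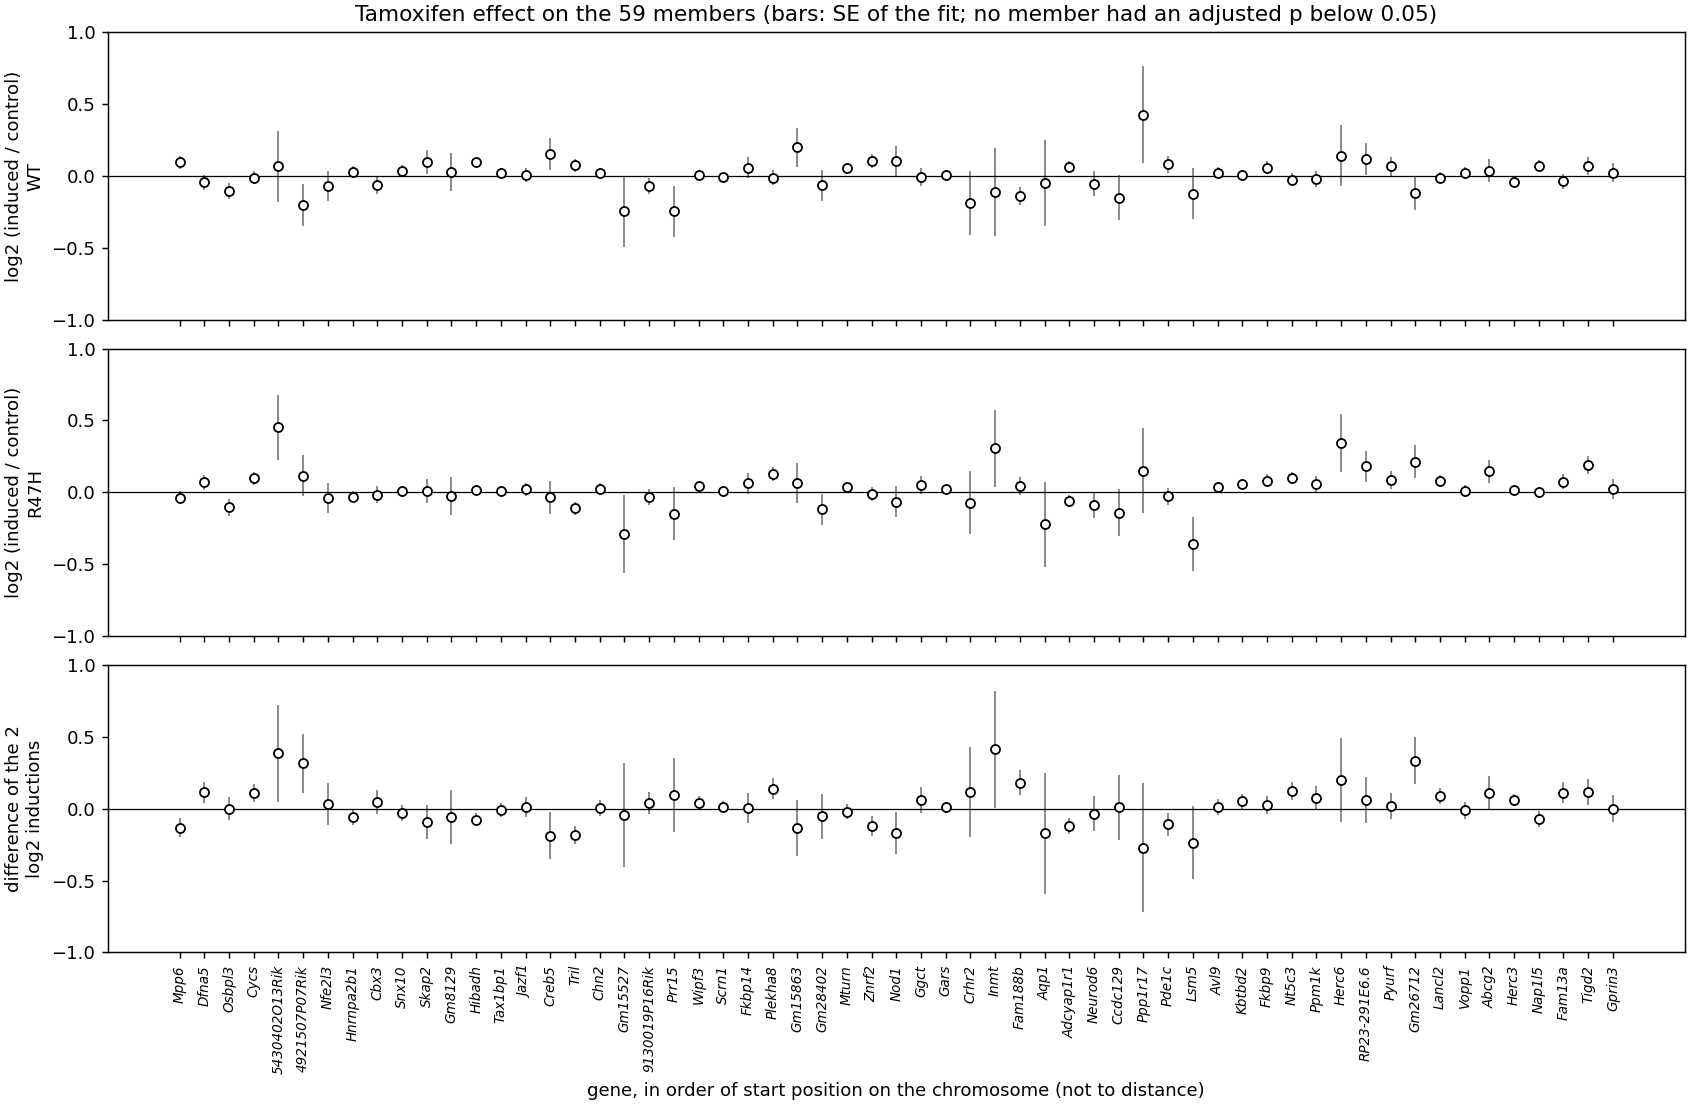
Log2 change with tamoxifen for the 59 members in WT mice (top) and R47H mice (middle), and the difference of these changes (bottom), in order of position with bars for the SE. Points of well-expressed genes lie close to 0, and the widest bars belong to low genes such as Inmt, Ppp1r17, Gm15527 and Aqp1. None passed the threshold.

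Some members share reads with other genes. Of 58 members found in the GENCODE vM21 annotation, 20 have exon bases overlapped by another gene, 5 of them by more than 20%: Gm26712 (100%), Gm28402 (50.9%), the gene of unconfirmed type beside Pyurf (35.4%), Pyurf (34.2%) and Tril (21.4%). Both Gm26712 and the gene of unconfirmed type overlap Pyurf on the same strand, so reads from the shared bases cannot be told apart, and for Gm26712 that is every exon base. Cycs, Hnrnpa2b1 and Cbx3 have processed pseudogene copies elsewhere, and Gm8129 is itself a pseudogene, so their values are uncertain.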

How the data were processed

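Whole-number read counts per gene were used as the authors deposited them, with no normalization. Per the submitters' processing notes, STAR 2.5.2b, featureCounts 1.5.1 and build mm10 were involved; the sources used here do not state the counting options, strand or annotation. Per the labels' protocols, poly-A RNA was prepared with a TruSeq v2 kit. Groups came from the genotype and treatment labels.

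Counts passing filterByExpr (19678 of 43346 genes, all 59 members included) were scaled by TMM and fitted over 24 libraries with the robust quasi-likelihood test of edgeR 4.0.16 (R 4.3.3) and Benjamini-Hochberg adjustment over all tested genes. SE is the size of the log2 difference divided by the root of F. The low-value filter removed no member, but the count rule did choose them. Alternatives were RLE and library-total scaling, 2 other filters, DESeq2 1.42.0, limma-voom (limma 3.58.1), fits on the compared libraries, a threshold of 0.1, the rRNA-like share (Yam1, AY036118 and Lars2) as a covariate and each library left out. Leaving out R47H_control replicate 3 and WT_induced replicate 6 together, and the latter alone for the interferon genes, was added after seeing the data. The procedure was tested on simulated data. Members, role lists and tests were chosen with earlier results of these data known. Genes named are the called members, the 5 lowest p values of each tamoxifen comparison, the ends of the window and the members of the role lists; family and interferon genes were added after values were seen. RefSeq promoters matched 48 members. The gene just after the window is not reported here.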

Additional observations from a re-analysis of the deposited data

Results flagged for a closer look

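Among the 18 called members, 72 groups of 6 libraries were checked for a library far from the other 5, and 5 had one; chance gives about 1 in 20 groups. Herc6 in WT_induced replicate 6 was at 11.5 CPM, with the next highest library at 5.62. Ppm1k in the same library was at 84.5 CPM, with the next at 75.4. Lancl2 in R47H_control replicate 3 was at 64.8 CPM, the lowest of its group, with the next at 72.1. Inmt in R47H_control replicate 2 was at 1.27 CPM, with the next at 0.863, and Nap1l5 in WT_induced replicate 1 at 260 CPM, with the next at 243.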

How the results depend on the processing

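No paired analysis was possible because the labels give no replicate numbers that groups share. The genotype differences of the called members kept their sign under every alternative run; other named genes were not followed through the alternatives. In control mice, members called higher were 10 under the reported settings, 4 with library-total scaling, 0 with the rRNA-like covariate and 4 to 10 with 1 library left out; members called lower were 3, 6 with library-total scaling and 3 to 5 with 1 library left out. In induced mice, members called lower were 3, 1 with library-total scaling and 3 to 4 with 1 library left out, and members called higher 12 and 10 to 12. Among the fits with 1 library left out, the one without WT_control replicate 6 gave the fewest control calls in all (9). For single members, 57 alternative values lost the call in control mice and 385 kept it, and in induced mice 17 lost it and 493 kept it, led by Nap1l5 (20 of 34), Herc6 in control mice (12 of 34) and Tigd2 (11 of 34). Without R47H_control replicate 3 and WT_induced replicate 6 together, 14 members were called in control and 16 in induced mice. Tamoxifen comparisons gave 0 called members under every alternative run. Low members such as Inmt, Ppp1r17 and Gm15527, near 1 CPM or below, have wide errors, and small differences in them were not detectable at this depth.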
